A study of Mus musculus with 20 samples.

Results

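The response of microglia to amyloid plaques was measured in mice that lack C3ar1, by setting microglia of APP-KI;C3aRKO mice against those of C3aRKO mice. The samples were chosen by genotype alone, and 8 of the 20 samples of the series qualified: 5 libraries of APP-KI;C3aRKO (replicates 1 to 5) and 3 of C3aRKO (replicates 1 to 3). All genes listed were examined. Every mouse was C57BL/6 and 9 months old, and microglia were sorted from the brain before bulk RNA sequencing. APP-KI mice carry the NL-G-F allele, a knock-in that turns the amyloid β part of mouse App into the human form. It also brings in the mutations known as Arctic, Iberian and Swedish. The allele is read from the App promoter itself, and no transgene is added. C3aRKO is a conventional knockout of C3ar1, shared by both groups, so that the groups differ in the APP-KI allele. Per the methods the mice were littermates and both sexes were used. The comparison asks what the APP-KI allele does to microglia when C3aR cannot take part. For values side by side, 3 WT and 3 APP-KI libraries with an intact C3ar1 were used, also 9 months old and not selected on C3aR. A further 6 libraries came from WT and APP-KI microglia sorted for C3aR through a reporter.

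Microglia survey the healthy brain and keep a set of homeostatic genes active. Near plaques they are known to take up a plaque-response program that needs the receptor Trem2 and its signalling partner Tyrobp, with genes of phagocytosis, lysosomes and lipid handling turned up. C3aR, the product of C3ar1, is the receptor for C3a, a fragment released when complement C3 is cleaved.

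The targeted gene was examined first. C3ar1 (chr6:122847138-122856161, minus strand of GRCm38) had scaled values of 68.1, 39.9 and 65.7 in the C3aRKO libraries, in the order of their replicate numbers. In the APP-KI;C3aRKO libraries they were 80.4, 77.4, 69.4, 75.9 and 61.9, from between 2537 and 5502 reads in each of the 8 libraries. With C3ar1 intact, the WT libraries held 276, 329.9 and 340.0 and the APP-KI libraries 165, 315 and 388. Every knockout library thus lay below every library with an intact gene, although reads remained on C3ar1 in all 8 knockouts. A scaled value is the number of reads on a gene divided by the 75th percentile of the read counts of that library, times 1 constant for all libraries. It is not divided by gene length, so levels are not compared between genes. Among the knockouts, the log2 fold change of C3ar1 was 0.31 (standard error, SE, 0.24; limma, adjusted p = 0.51), and the groups overlapped. An exact permutation test over the 8 libraries, two-sided with 56 arrangements, gave p = 0.143. With the level of Y-linked genes as a covariate, a setting chosen after seeing the data, the value turned to -0.15 (adjusted p = 0.79 from limma).

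Several libraries stood apart before any comparison. Recovered reads came to 69483570, 61843354 and 65559856 in C3aRKO replicates 1 to 3. In APP-KI;C3aRKO replicates 1 to 5 they came to 42239056, 69658208, 59494067, 59474448 and 65245584. Genes with at least 10 reads numbered 11739, 11808 and 14290 in C3aRKO, and 11134, 14981, 13917, 14215 and 13923 in APP-KI;C3aRKO. C3aRKO replicates 1 and 2 and APP-KI;C3aRKO replicate 1 therefore held fewer detected genes than the other 5, and the last of the 3 was also the least deeply sequenced. Among the intact libraries, APP-KI replicate 4 (11934 genes) was low in the same way, and APP-KI replicate 5 (20733 genes) was high. Counts are given with and without the 4 low libraries, an alternative chosen after seeing the data. That leaves C3aRKO replicate 3 as the lone library of its group, whose spread is assumed to be like that of the other groups. On the first principal component of the 8 libraries, with 39.8% of the variance, APP-KI;C3aRKO replicate 1 lay at -95.7 and C3aRKO replicate 2 at -53.2, with the other 6 above both, up to 44.2. The second component held 32.4% and separated the genotypes, with C3aRKO between 20.0 and 78.0 and APP-KI;C3aRKO between -73.5 and -8.63.

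Sex was unequal between the groups. The summed scaled value of the Y-linked genes Ddx3y, Uty, Kdm5d and Eif2s3y was 78.6, 0.157 and 0.266 in the C3aRKO libraries. In APP-KI;C3aRKO it was 257, 106, 83.2, 83 and 78.3. C3aRKO replicates 2 and 3 were thus near 0, while C3aRKO replicate 1 and all 5 APP-KI;C3aRKO libraries held reads from the Y chromosome. WT libraries were at 83.6, 0.0396 and 0.0863 and APP-KI libraries at 0.19, 97 and 82.1, a mixture in both. Y-linked reads were thus held by WT replicate 4 and by APP-KI replicates 5 and 6. The median log2 fold change of the Y-linked genes was 0.90 for APP-KI against WT and 3.30 for APP-KI;C3aRKO against C3aRKO, the same direction. Without the 4 libraries low in detected genes, C3aRKO replicate 3, near 0, is set against APP-KI;C3aRKO replicates 2 to 5, all with Y-linked reads, so that sex and genotype cannot be told apart in that comparison. Eif2s3y made up the largest part of the sum, and 3 of the 4 genes were at 0 in C3aRKO replicate 2. Results that were lost or moved when the level of these genes was taken as a covariate are named beside each result for most genes. That covariate was run on all 12407 genes, and beyond it the part of sex was not tested. Among the largest falls, described below, it also ended the calls of Slco4a1 (-2.90), Gbp3 (-2.38), Mgl2 (-2.57), Fgf11 (-2.25), Slc13a3 (-2.02) and Pde2a (-2.02). The calls of Ccl4, Ptgs1, Ctsb, Il10ra, F13a1 and Ccr2, described further on, were lost with that covariate too. The library numbers fall into 2 series, and all 4 genotypes occur in both. The lower-numbered, first series holds 2 C3aRKO and 2 APP-KI;C3aRKO libraries, the second holds 1 and 3, and the series was a term in every fit unless said otherwise.

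Microglial markers were present at high level in every library. The 10 markers summed to 25582, 17608 and 29711 in C3aRKO and to 9957, 22342, 25846, 22901 and 25953 in APP-KI;C3aRKO. Csf1r made up the largest part of the sum, and none was at 0. APP-KI;C3aRKO replicate 1 was the lowest of all. Siglech was the 1 marker of the 10 to pass the test, and it was lower (2.97% of all genes, limma). The median of the 10 was -0.44, and 9 of them lay below 0 (47.1% of all genes lay above 0).

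In C3ar1-deficient microglia many genes differed in both directions between mice with and without the APP-KI allele. The groups also differed in Y-linked reads and in genes detected, as given above. Of 12407 genes tested, 491 (3.96%) were higher and 369 (2.97%) lower in APP-KI;C3aRKO than in C3aRKO at an adjusted p under 0.05 (limma). The adjusted p may be optimistic for these calls as a whole, and calls just under the threshold are the least secure. The median log2 fold change over all genes was -0.03, and 47.1% of the genes lay above 0. In 787 genes (6.34%) every APP-KI;C3aRKO library lay above every C3aRKO library, and 409 of these were among the genes called higher. In 911 genes (7.34%) every one lay below, and 342 of these were among the genes called lower. Without the 4 libraries low in detected genes, 1655 genes (13.2%) were higher and 2281 (18.2%) lower of 12563 tested, and they included 459 and 353 of the original calls. Without the 3 of these that are among the 8 libraries compared, the counts were 580 and 506 of 12517, with 352 and 230 of the original calls, also chosen after seeing the data. The further library left out is APP-KI replicate 4, which lies outside the comparison and enters through the shared spread and series term, and counts of lists without the 4 low libraries rest on the same fit. With the Y-linked covariate 310 of the 12407 genes were higher and 226 lower, of which 270 and 179 were among the original calls. Counts of lists with that covariate are to be set beside these 310 and 226. Leaving out APP-KI;C3aRKO replicate 1 alone gave 759 higher and 638 lower genes. Without C3aRKO replicate 3 the lower genes came to 243, without APP-KI;C3aRKO replicate 3 to 245 and without APP-KI;C3aRKO replicate 4 to 243. In bulk samples, fewer cells of a type and less RNA per cell cannot be told apart. The p-values measure the spread between libraries, and fold changes on log2(scaled value + 1) understate the change of genes with low values.

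Most of the largest rises were those of genes nearly silent in C3aRKO microglia. Gpnmb (chr6:49036546-49070929, plus strand), which encodes a membrane glycoprotein of lipid-laden phagocytes, stood at 0.0737, 0.912 and 0.5 in C3aRKO and at 352, 461, 1625, 956 and 1178 in APP-KI;C3aRKO. All 5 plaque-bearing libraries were far above all 3 controls, and replicates 1 and 2 were the lowest of the 5. Its log2 fold change was 8.74 (SE 0.41; limma, adjusted p = 1.2e-08). Cst7 (chr2:150570415-150578944, plus strand), which encodes cystatin F, an inhibitor of lysosomal proteases, went from 1.12, 2.2 and 6.36 to 279.9, 1061, 1714, 1531 and 1822. Replicate 1 was the lowest APP-KI;C3aRKO library by a wide gap, yet above every control. The log2 fold change of Cst7 was 7.81 (SE 0.41; limma, adjusted p = 2.2e-08). Mamdc2, a secreted protein, read 0, 0 and 0.281 in C3aRKO and 154, 116, 239, 254 and 377 in APP-KI;C3aRKO, a log2 fold change of 7.41. Baiap2l2, whose product bends membranes, read 0, 0.582 and 0.422 against 118, 93.7, 122, 119 and 117, a change of 6.39 on the log2 scale. For both genes the controls lay near 0 in all 3 libraries, and the groups did not overlap.

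Spp1 (osteopontin, a secreted phosphoprotein) varied more among the controls, with 1.21, 40.8 and 11.4 in C3aRKO and 283, 858, 1669.6, 1523 and 1517 in APP-KI;C3aRKO, a log2 fold change of 6.07 (SE 0.73). C3aRKO replicate 2 was its highest control and replicate 1 its lowest APP-KI;C3aRKO library, with no overlap. The change of Spp1 was 5.28 without C3aRKO replicate 1, 7.33 without replicate 2 and 5.36 without replicate 3, or 6.75 with the Y-linked covariate. The catenin gene Ctnna3 changed by 5.99, with 0.059, 0.0157 and 0.578 against 260.2, 65.3, 34.1, 48.6 and 45.1, and here replicate 1 was the highest. Its change was 6.61 with the Y-linked covariate, and that of Lpl, described below, 4.82. Dkk2, which encodes a secreted modulator of Wnt signalling, read 0.0147, 0 and 1.02 against 52.9, 63.2, 85.1, 91.5 and 165, a log2 fold change of 5.86. Atp6v0d2, a subunit of the proton pump of lysosomes in macrophages and osteoclasts, read 0, 0 and 0.438 against 61.7, 42.7, 83.1, 77.5 and 122, a log2 fold change of 5.84. For Dkk2 and Atp6v0d2, APP-KI;C3aRKO replicate 5 was the highest library, and every control was near 0. Lpl (lipoprotein lipase) changed from 26.3, 4.28 and 20 to 396, 831, 841, 934 and 1078, or by 5.54 on the log2 scale. Itgax, the CD11c integrin chain, was already well expressed in the controls, at 33.8, 38.6 and 34.3, and reached 736, 1302, 1655, 1713 and 2807, a log2 fold change of 5.21. The fatty acid carrier gene Fabp5 read 1.34, 10.2 and 1.3 against 194, 64, 106, 139 and 119, a change of 4.97, or 5.67 without C3aRKO replicate 2. In all 3 genes the lowest APP-KI;C3aRKO library stood well above the highest control.

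The other 4 of the 15 largest rises were Etl4 (5.63), the cation channel gene Trpm1 (4.95), Wipf3 of the family of actin regulators that bind WASP (4.56) and the collagen receptor gene Mrc2 (4.55). Etl4 read 4.44, 1.92 and 7.09 in C3aRKO and 369, 193, 275, 242 and 259 in APP-KI;C3aRKO. Mrc2 read 0.0147, 1.01 and 8.44 in C3aRKO and 92.6, 63.5, 95.8, 58.2 and 75.3 in APP-KI;C3aRKO. C3aRKO replicate 3 was the highest control for both. All 15 genes kept their sign within each library series and their call in every alternative run, leaving out single libraries, the 4 low libraries or taking the Y-linked covariate included. Within the first and second series, the changes were 8.14 and 9.67 for Gpnmb, 7.71 and 7.84 for Cst7, 6.99 and 4.77 for Ctnna3 and 5.77 and 3.01 for Mrc2. Mrc2 stood at 3.18 without the 4 low libraries and at 5.35 without C3aRKO replicate 3, where Gpnmb came to 8.15 and Ctnna3 to 6.60. With the Y-linked covariate Mrc2 stood at 5.17. Without the 4 low libraries Gpnmb came to 9.66, Spp1 to 7.22, Fabp5 to 5.61, Etl4 to 5.03 and Ctnna3 to 4.86.

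**Figure D1:**
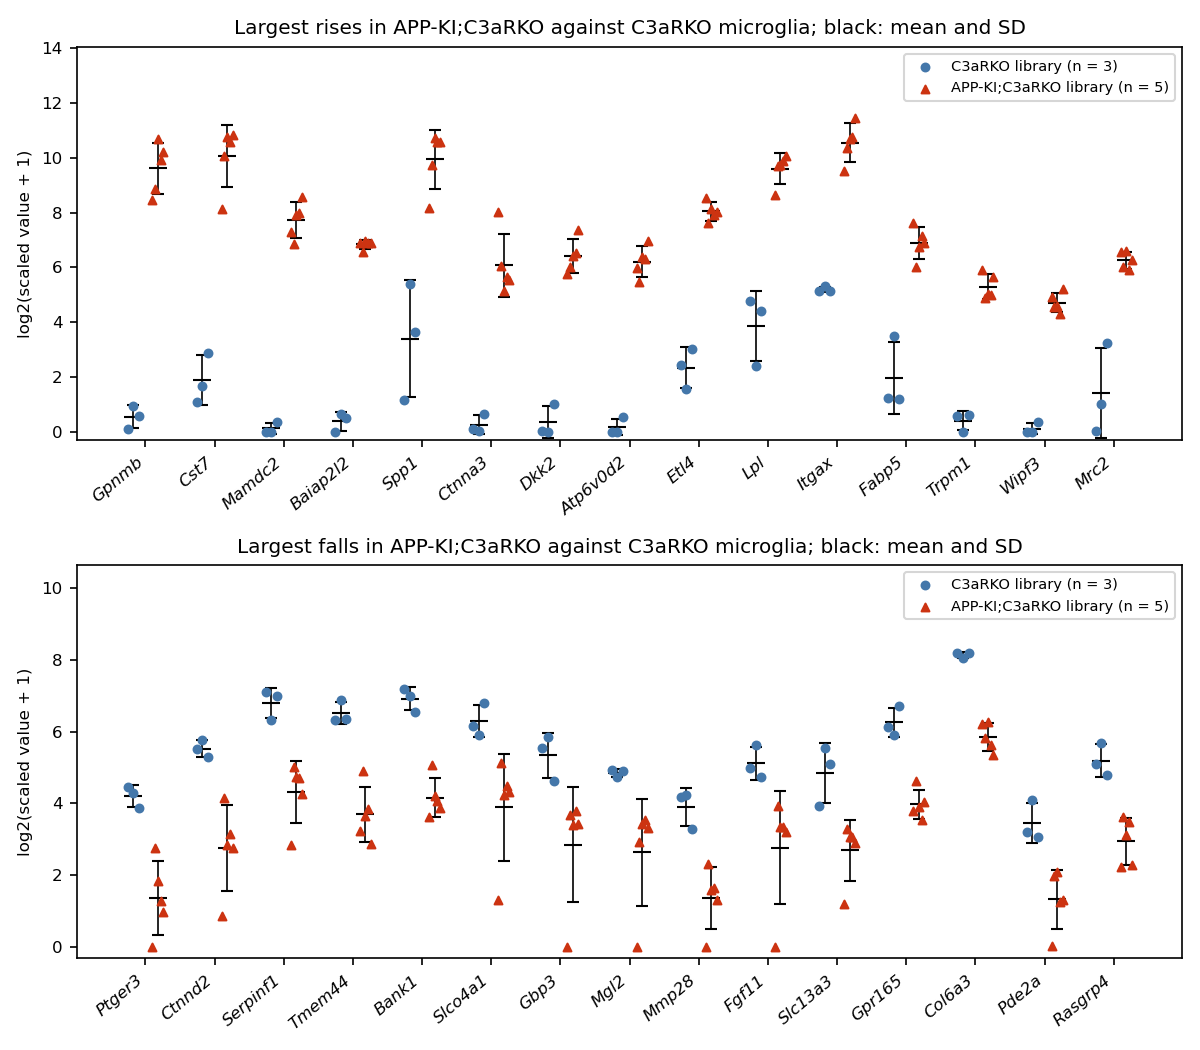
Level of the 15 genes with the largest rise (top) and the 15 with the largest fall (bottom) in each of the 3 C3aRKO libraries (circles) and 5 APP-KI;C3aRKO libraries (triangles), as log2(scaled value + 1), with the mean and SD of each group in black. In the top panel all triangles lie above all circles for every gene, and in the bottom panel all lie below, with APP-KI;C3aRKO replicate 1 the lowest for 12 of the 15 falls.

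The largest falls were smaller in size than the rises and leaned more on single libraries. Col6a3, a chain of collagen VI, was the steadiest, at 291, 262 and 288 in C3aRKO and 72.6, 56, 76.5, 48.6 and 39.6 in APP-KI;C3aRKO. Its controls spanned a narrow range far above all 5 plaque-bearing libraries, and its log2 fold change was -2.25 (SE 0.19; limma, adjusted p = 3.2e-06). Bank1, a scaffold protein gene of B cell signalling, read 144, 126 and 93.1 against 11.2, 32.2, 17.6, 15.7 and 13.6, a log2 fold change of -2.64 (limma, adjusted p = 1.6e-05). Gpr165, an orphan receptor gene, read 69.5, 59.3 and 104 against 12.9, 23.5, 13.9, 10.7 and 15.5, a log2 fold change of -2.27 (limma, adjusted p = 5.1e-04). These 3 genes kept their call in every alternative run, and in none of them did the groups overlap.

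Ptger3, the EP3 receptor for prostaglandin E2, had the largest fitted fall, -2.78 (SE 0.63; limma, adjusted p = 0.014), from 21.1, 18.4 and 13.5 to 0, 5.84, 2.58, 1.45 and 0.97. All APP-KI;C3aRKO libraries were low, and replicate 1 held no read. The call was lost without C3aRKO replicate 3 (-2.94). Tmem44 fell from 78.7, 115 and 80.6 to 8.37, 29, 11.5, 13.4 and 6.32, a log2 fold change of -2.74, and did not pass without C3aRKO replicate 3 (-2.71). The δ-catenin gene Ctnnd2 fell from 44.6, 53.2 and 38.5 to 0.814, 16.7, 6.18, 7.88 and 5.78, or by 2.77 on the log2 scale, and did not pass with the Y-linked covariate (-2.60). It was -2.07 without APP-KI;C3aRKO replicate 1. Serpinf1, which encodes the secreted factor PEDF, fell from 136, 78.7 and 125 to 6.13, 31.3, 25.5, 25.3 and 18.3, a log2 fold change of -2.75 (limma, adjusted p = 0.049). Replicate 1 was the lowest library for Ctnnd2 and Serpinf1 as well. The call of Serpinf1 was lost without C3aRKO replicate 1 (-2.44), 2 (-2.82) or 3 (-3.10), APP-KI;C3aRKO replicate 1 (-2.43), 3 (-2.75), 4 (-2.75) or 5 (-2.65), WT replicate 4 (-2.77), 5 (-2.75) or 6 (-2.75) or APP-KI replicate 6 (-2.64). The Y-linked covariate moved Serpinf1 to -4.27, Tmem44 to -3.53 and Ptger3 to -3.46, all still past the threshold.

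The other 8 largest falls ran from -2.56 for the organic anion transporter gene Slco4a1 to -2.14 for Rasgrp4. Between them came Gbp3 (-2.55), the macrophage lectin gene Mgl2 (-2.52), the metalloproteinase gene Mmp28 (-2.51), Fgf11 (-2.43), the dicarboxylate transporter gene Slc13a3 (-2.28) and the phosphodiesterase gene Pde2a (-2.15). In APP-KI;C3aRKO replicate 1, 5 of the 15 genes held no read, namely Ptger3, Gbp3, Mgl2, Mmp28 and Fgf11. Gbp3 read 45.9, 56.1 and 23.7 in C3aRKO and 0, 11.8, 9.47, 12.8 and 9.83 in APP-KI;C3aRKO, where the other 4 libraries were alike. Its fitted change was -1.57 without APP-KI;C3aRKO replicate 1 and -3.20 without C3aRKO replicate 3. The change of Gbp3 was -3.85 within the first series and -1.09 within the second series. Leaving out APP-KI;C3aRKO replicate 1 gave -1.77 for Slco4a1, -1.81 for Mgl2 and -1.50 for Fgf11, and leaving out replicate 2 gave -3.15 for Slco4a1. Of the 15 falls, 15 passed without the 4 low libraries and 7 with the Y-linked covariate, where Mmp28 came to -3.14 and Rasgrp4, no longer called, to -1.55. Without the 4 low libraries the falls were smaller for Gbp3 (-1.12), Mgl2 (-1.43), Mmp28 (-1.74), Fgf11 (-1.35) and Pde2a (-1.46). Without the 3 low libraries among the 8 compared, 7 of the 15 calls were lost, as with a pseudocount of 0.1 and with the 8 libraries alone, and edgeR lost 8 and DESeq2 6. Replicates 1 to 3 with the series term lost 10 of the 15 calls and the replicate block 9, while no filter lost 5 and limma without a trend 4. Leaving out C3aRKO replicate 1 or replicate 2 ended 6 of the 15 calls in both cases. Leaving out C3aRKO replicate 3 ended 5, and leaving out APP-KI;C3aRKO replicate 5 ended 4. Without APP-KI;C3aRKO replicate 3, WT replicate 4, WT replicate 5 or WT replicate 6, 3 calls were lost in each case. Without APP-KI;C3aRKO replicate 4 or APP-KI replicate 6, 2 were lost, and without APP-KI;C3aRKO replicate 1 or APP-KI replicate 5, 1 was. By gene, Gbp3 lost its call without C3aRKO replicate 1 (-2.40) or 2 (-2.27), APP-KI;C3aRKO replicate 3 (-2.64) or 5 (-2.66) or WT replicate 4 (-2.57), 5 (-2.55) or 6 (-2.56). Fgf11 lost it without C3aRKO replicate 1 (-2.44), 2 (-2.13) or 3 (-2.87), APP-KI;C3aRKO replicate 3 (-2.53), 4 (-2.53) or 5 (-2.50), WT replicate 4 (-2.48), 5 (-2.44) or 6 (-2.45) or APP-KI replicate 5 (-2.42) or 6 (-2.44). Slco4a1 lost it without C3aRKO replicate 1 (-2.52), 2 (-2.64) or 3 (-2.52), Mmp28 without C3aRKO replicate 1 (-2.38) or 2 (-2.35) or APP-KI;C3aRKO replicate 5 (-2.50) and Mgl2 without C3aRKO replicate 1 (-2.30) or 2 (-2.39).

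Among surface receptors and membrane proteins of the plaque response, more genes rose than fell in the absence of C3ar1. The list was picked for the plaque response with earlier results of these data known, so its counts are not independent evidence. Of 15 tested, 9 were higher, 2 lower and 4 neither (all genes 3.96% and 2.97%). Their median log2 fold change was 1.07, against -0.03 over all genes. With the Y-linked covariate 7 of the 15 were higher and 1 lower (310 and 226 of all 12407 genes in that fit). Tyrobp, the signalling adaptor of Trem2, read 232, 145 and 321 in C3aRKO and 422, 804, 1337, 1342 and 1185 in APP-KI;C3aRKO. The groups did not overlap, C3aRKO replicate 2 was the lowest, and the log2 fold change was 1.83 (limma, adjusted p = 5.6e-04). Trem2, the lipid-sensing receptor itself, read 709, 524 and 710.2 against 859.6, 1351, 1879, 1876 and 1682, a change of 1.07 (limma, adjusted p = 0.0068). It did not pass without C3aRKO replicate 3 (0.93) or with the Y-linked covariate (0.69). Axl, a receptor tyrosine kinase that binds dying cells through a bridging ligand, read 44.5, 60.7 and 93.8 against 262, 749.8, 1134, 1154 and 1082, with replicate 1 the lowest of the plaque-bearing libraries. Axl rose by 3.28 (limma, adjusted p = 3.2e-06). The tetraspanin gene Cd63 rose by 1.89, from 42.1, 41.8 and 58.9 to 93.9, 167, 292, 303 and 289, and Cd83, of the immunoglobulin superfamily, rose by 1.65, from 109, 109.7 and 163 to 267, 395, 496, 550.1 and 543. For Cd63 and Cd83 every plaque-bearing library was above every control. The tetraspanin gene Cd9 rose by 1.37, with values that overlapped between the groups, and did not pass without C3aRKO replicate 3 (1.28) or with the Y-linked covariate (0.98). Ptgs1 (cyclooxygenase 1) changed by -0.51 and lost its call without C3aRKO replicate 1 (-0.45) or 3 (-0.43), APP-KI;C3aRKO replicate 3 (-0.51), 4 (-0.50) or 5 (-0.53), WT replicate 5 (-0.51) or 6 (-0.52) or APP-KI replicate 6 (-0.52). Without the 4 low libraries 11 of the 15 were higher and 2 lower (13.2% and 18.2% of all genes in that fit), with a median of 1.62.

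Secreted factors of the plaque response moved further than the other lists of microglial function, with 12 of 20 higher (3.96% of all genes), none lower and a median of 2.44. They were picked for the plaque response with earlier results of these data known, so their count and rank are not independent evidence. The growth factor gene Igf1 read 8.53, 4.62 and 9.62 in C3aRKO and 151, 155, 277, 243 and 361 in APP-KI;C3aRKO. Csf1, the ligand of the receptor that microglia need to survive, read 30.9, 29 and 69.3 against 821, 684, 818, 910.2 and 1089.5. All 5 plaque-bearing libraries were high for both genes, replicate 1 included, with log2 fold changes of 4.54 and 4.26 (adjusted p = 1.2e-08 for both, from limma). Apoe, which encodes the main lipid carrier of the brain, read 4437, 3437 and 2965 against 9466, 14608, 27747, 26761 and 30618. Its groups did not overlap, replicates 1 and 2 were the lowest of the plaque-bearing libraries, and the log2 fold change was 2.27 (limma, adjusted p = 0.0016). Within the first series Apoe changed by 1.59 and within the second by 3.26, and in DESeq2 it did not pass (2.22). Without C3aRKO replicate 3 Apoe changed by 1.67 and Ccl6 by 2.04, and without C3aRKO replicate 1 Ccl3 changed by 2.36, or by 3.67 with the Y-linked covariate. Among chemokine genes, Ccl3 rose by 2.97, from 8.67, 35.4 and 56.7 to 192, 245, 260.3, 338 and 204, and Ccl6 by 2.74, from 88.4, 137 and 52 to 372, 640.5, 814, 769.8 and 621. Neither gene overlapped between the groups. The galectin gene Lgals3 rose by 2.62, from 4.29, 0.173 and 7.55 to 9.95, 20, 42.2, 60.9 and 56.9, and did not pass with the Y-linked covariate (1.60) or in edgeR (2.82). Ccl4, at 38.9, 11.3 and 51.9 against 66.2, 123, 128, 169 and 67.9, rose by 1.67 and lost its call without C3aRKO replicate 2 (1.15), APP-KI;C3aRKO replicate 2 (1.45) or APP-KI;C3aRKO replicate 4 (1.56). Vegfa, which encodes an angiogenic factor, did not pass and overlapped between the groups, with a log2 fold change of 1.48 (limma, adjusted p = 0.18). Its values were 5.56, 43.1 and 8.73 in C3aRKO and 59, 40.1, 40.6, 34.5 and 15.4 in APP-KI;C3aRKO, with replicate 2 the high control, and it passed without C3aRKO replicate 2 (2.19) and with the Y-linked covariate (2.79).

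Part of the hypoxia response was higher without C3ar1 as well. Of the study's hypoxia module 25 genes were tested, of which 11 were higher (3.96% of all genes), none lower and 24 above 0 (47.1% of all genes), with a median log2 fold change of 1.03. The module was chosen by the study with samples of this series, so its count is not independent evidence. Hif1a (chr12:73901375-73947530, plus strand), the oxygen-regulated subunit of HIF-1, read 209, 213 and 154 in C3aRKO and 447, 619.8, 1010.3, 849 and 1193 in APP-KI;C3aRKO. No plaque-bearing library overlapped a control, and the log2 fold change was 1.90 (SE 0.24; limma, adjusted p = 1.6e-04). It was 1.31 within the first series and 2.70 within the second series. Egln3, a prolyl hydroxylase that marks HIF for breakdown and is itself a HIF target, read 9.18, 0 and 4.38 against 45.2, 47.5, 84.9, 69.7 and 84.6, a change of 3.94 (limma, adjusted p = 2.3e-04). Controls were low in all 3 libraries, and the change was 4.72 without C3aRKO replicate 1 and 3.10 without C3aRKO replicate 2, or 3.23 with the Y-linked covariate. Bhlhe40, a transcription factor gene, spread widely in the controls, at 14.9, 68.8 and 4.34, and was steadier with plaques, at 74, 111, 139, 158 and 179.7. Its rise of 2.79 (limma, adjusted p = 0.012) did not pass without C3aRKO replicate 3 (1.45), the lowest control, or with the Y-linked covariate (3.06), and was 3.75 without C3aRKO replicate 2. Bnip3, a mitophagy receptor gene, did not pass, with 16.2, 0 and 10.5 against 39.9, 19.7, 31, 25.1 and 23 and a log2 fold change of 2.18 (limma, adjusted p = 0.067), and passed without C3aRKO replicate 1 (2.99) and without the 4 low libraries (1.21). Without the 4 low libraries 23 of the 25 module genes were higher (13.2% of all genes in that fit), with a median of 1.32. The oxygen-sensing machinery as a whole was another matter, since of 9 genes tested Hif1a and Egln3 alone passed (3.96% of all genes higher) and the median was -0.07, with a sign that changed in 10 of the alternatives.

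Some genes of glycolysis and glucose transport rose. Of 23 genes tested, 9 were higher (3.96% of all genes), none lower and 6 below 0. With the Y-linked covariate 5 were higher and 1 lower (310 and 226 of all 12407 genes in that fit). The counts were 14 higher and 2 lower without the 4 low libraries (13.2% and 18.2% of all genes). Their median log2 fold change was 0.82. Tpi1, a glycolytic isomerase, read 43.6, 33.8 and 38.2 in C3aRKO and 115, 95.6, 179, 153 and 154 in APP-KI;C3aRKO. The groups did not overlap, and the change was 1.69 (limma, adjusted p = 2.6e-05). Slc16a3, the lactate exporter MCT4, read 26.2, 26.3 and 32.4 against 75.7, 61.3, 122, 95.1 and 86.3, a change of 1.44 (limma, adjusted p = 6.1e-04). Slc2a1, the glucose transporter GLUT1, read 37, 92.3 and 65.8 against 127, 125, 185, 169 and 189, a change of 1.27 (limma, adjusted p = 0.0032). Each of these 3 separated the groups in all 8 libraries. Pkm (pyruvate kinase, 1.22) and Ldha (lactate dehydrogenase, 1.00) rose too. Both lost their calls without C3aRKO replicate 3 (0.86 and 0.61) and with the Y-linked covariate (0.86 and 0.61). Within the first series the median of the list was 0.49 and within the second series it was 0.83.

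Transcripts of mitochondrial respiration and of ribosomes were counted next. Over all 12407 genes, 310 were higher with the Y-linked covariate. Of 73 nuclear-encoded subunits of oxidative phosphorylation, 10 were higher (3.96% of all genes) and none lower, 57 lay above 0 (47.1% of all genes), and the median log2 fold change was 0.41. With the Y-linked covariate that median was 0.19, with 5 higher, and without the 4 low libraries it was 0.48, with 53 higher (13.2% of all genes in that fit). Cytosolic ribosomal protein genes gave 22 higher of 76 (3.96% of all genes) and none lower, with a median of 0.74. Their median was 0.37 within the first series and 1.08 within the second series. With the Y-linked covariate it was 0.48, with 11 higher, and without the 4 low libraries 1.06, with 52 higher (13.2% of all genes).

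Many genes of lipid handling rose. Over all 12407 genes, 310 were higher with the Y-linked covariate. Of the study's lipid genes 13 were tested, of which 7 were higher (3.96% of all genes) and none lower, with 6 higher under the Y-linked covariate and 12 without the 4 low libraries (13.2% of all genes). Their median log2 fold change was 1.69, and this list too was chosen by the study with samples of this series and is not independent evidence. Beside Apoe, Lpl and Fabp5, it holds Ch25h, which encodes cholesterol 25-hydroxylase and read 0, 0 and 1.78 in C3aRKO and 25.2, 28.1, 47.3, 31 and 31.7 in APP-KI;C3aRKO. Controls were at or near 0, and the fitted change was 4.34 (limma, adjusted p = 1.3e-06). Nceh1, a neutral cholesterol ester hydrolase, read 17.2, 5.52 and 22.2 against 40.9, 99.9, 170.4, 156 and 201, a change of 2.80 (limma, adjusted p = 1.6e-04). The enzyme that makes cholesterol esters, Soat1, read 219, 200.2 and 181 against 419.8, 274, 327, 344 and 449, a change of 0.82 (limma, adjusted p = 0.0074), lost without C3aRKO replicate 3 (0.68). In Nceh1 and Soat1 no library of one group reached the other.

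Synthesis of fatty acids and cholesterol was represented by 22 genes, of which 7 were higher (3.96% of all genes) and none lower. With the Y-linked covariate 3 were higher, and without the 4 low libraries 15 were (13.2% of all genes). Their median log2 fold change was 0.83. With the covariate 310 of all 12407 genes were higher. Acaca, the carboxylase that opens fatty acid synthesis, read 23.7, 38.5 and 23.5 in C3aRKO and 182, 155, 163, 145 and 177 in APP-KI;C3aRKO. The 5 plaque-bearing libraries were alike and all above the controls, with a change of 2.56 (SE 0.22; limma, adjusted p = 3.7e-06). Insig1, which restrains the sterol sensor, read 7.12, 26.2 and 13.6 against 74.4, 35.3, 34.2, 31.7 and 35, with replicate 1 the highest. Its change of 1.51 was lost without C3aRKO replicate 1 (1.06) or C3aRKO replicate 3 (1.58), and came to 2.13 with the Y-linked covariate. Of 7 genes of cholesterol efflux and LXR, Apoe was higher and Abca1 lower (3.96% and 2.97% of all genes), with a median of 0.07 whose sign changed in 9 alternatives. Abca1, the pump that loads cholesterol onto apolipoproteins, read 1432, 1166 and 1623 against 640.0, 904, 905, 880.2 and 914. Its fall of -0.77 (limma, adjusted p = 0.0084) separated the groups and was lost without C3aRKO replicate 3 (-0.69).

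Lysosomal genes rose in part. Of 34 hydrolases, cofactors and membrane proteins, 8 were higher (3.96% of all genes) and none lower. Their median log2 fold change was 0.49. The median was 0.18 within the first series and 0.78 within the second series. With the Y-linked covariate the median was 0.08, and 4 were higher (310 of all 12407 genes in that fit). Without the 4 low libraries it was 0.75, with 23 higher (13.2% of all genes). The protease gene Ctsl read 569.9, 282 and 590.2 in C3aRKO and 803, 1782, 1985, 2407 and 2691 in APP-KI;C3aRKO, with no overlap, and rose by 1.79 (limma, adjusted p = 0.0018). Ctsb read 2309, 1243 and 2566 against 2055, 5369, 8825, 8169.7 and 10059, and replicate 1 lay among the controls. The rise of Ctsb, 1.39, was lost without C3aRKO replicate 2 (1.22) or 3 (1.22), APP-KI;C3aRKO replicate 2 (1.24), 3 (1.35), 4 (1.37) or 5 (1.30), WT replicate 5 (1.38) or 6 (1.37) or APP-KI replicate 6 (1.39). Among 6 genes of the MiT family and lysosomal signalling the 1 gene called was Rragd (3.96% of all genes higher), a GTPase that links lysosomal nutrients to mTORC1. Rragd read 0.619, 1.53 and 3.75 against 25.4, 20.1, 41.8, 36.6 and 55.3, a rise of 3.53 (limma, adjusted p = 2.1e-05) with low values in every control. The median of those 6 was 0.10, and its sign changed in 6 alternatives.

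Phagocytic genes for which the study designed qPCR primers gave 3 higher of 8 (3.96% of all genes) and none lower, with a median of 0.50. With the Y-linked covariate the median was 0.04, with 1 higher and 1 lower (310 and 226 of all 12407 genes in that fit). In the fit without the 4 low libraries 5 were higher and 1 lower (13.2% and 18.2% of all genes). The study's reactive genes gave 4 higher of 7 (3.96% of all genes) and none lower, with a median of 1.10, or 0.69 with the covariate. The 7 include C3ar1 (0.31), the gene knocked out in both groups. Both lists were chosen by the study and are not independent evidence.

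Antigen presentation was examined by class. For MHC class II and costimulation 4 of 10 genes were higher (3.96% of all genes) and none lower, with a median of 0.91. Cd74, the invariant chain, read 535, 654 and 725 in C3aRKO and 980.5, 2835, 2259, 2962 and 5737 in APP-KI;C3aRKO. H2-Aa read 199.8, 238 and 184 against 319, 627, 443, 624 and 1114. For both genes replicate 5 was the highest and replicate 1 the lowest plaque-bearing library, all above the controls. Cd74 rose by 1.84 (limma, adjusted p = 0.016), a call lost without C3aRKO replicate 1 (1.82) or C3aRKO replicate 3 (1.68), and H2-Aa rose by 1.41, a call lost without C3aRKO replicate 1 (1.42) or C3aRKO replicate 3 (1.17). With the Y-linked covariate neither Cd74 (1.83) nor H2-Aa (1.55) passed, and no gene of the 10 was called in limma. Without the 4 low libraries 5 were higher and 1 lower (13.2% and 18.2% of all genes in that fit). Over all 12407 genes, 1255 were higher and 1280 lower at p under 0.05 without adjustment (limma). Among all genes edgeR called 387 higher and 268 lower, and DESeq2 692 and 450. For MHC class I presentation 13 genes were tested. In limma 0 passed, 3 were higher and 0 lower at p under 0.05 without adjustment, edgeR called 0 higher and 0 lower, and DESeq2 2 and 0. Their median was 0.22, against 0.56 without the 4 low libraries, where 6 were higher (13.2% of all genes). With the Y-linked covariate 1 of the 13 was higher (310 of all 12407 genes in that fit), and the difference between the classes was not tested.

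Counts in other immune lists, from all libraries, are set beside the share over all genes, 3.96% higher and 2.97% lower. At p under 0.05 without adjustment (limma), 1255 of all 12407 genes were higher and 1280 lower. Among all genes edgeR called 387 higher and 268 lower, and DESeq2 692 and 450. Without the 4 low libraries the medians were 0.38 for interferon-stimulated genes, 0.20 for complement, -0.17 for the Toll-like receptor list and 0.35 for the cell cycle. For 23 interferon-stimulated genes the median was 0.45. In limma 0 passed, 5 were higher and 0 lower at p under 0.05 without adjustment, edgeR called 0 higher and 0 lower, and DESeq2 1 and 0. Of 16 complement components and receptors 1 was higher, Itgax, with a median of -0.06 whose sign changed in 9 alternatives. Of 19 Toll-like receptor, inflammasome and cytokine genes 2 were higher and none lower, with a median of -0.20. Tlr2, the receptor for bacterial lipoproteins, was the clearest, at 41.1, 46.4 and 104 in C3aRKO and 108, 172, 250.0, 225 and 260.2 in APP-KI;C3aRKO. All plaque-bearing libraries lay above all controls, although replicate 1 came close to C3aRKO replicate 3, and the change was 1.51 (limma, adjusted p = 1.5e-04). For 20 cell cycle genes the median was 0.03, with a sign that changed in 9 alternatives. In limma 0 passed, 2 were higher and 0 lower at p under 0.05 without adjustment, edgeR called 0 higher and 0 lower, and DESeq2 0 and 0.

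Homeostatic genes lay mostly below 0, and how many passed the test depended on the libraries used. With the Y-linked covariate 226 of all 12407 genes were lower. Of 32 surface, secreted and nuclear genes of resting microglia, 6 were lower (2.97% of all genes) and none higher, with a median log2 fold change of -0.44. Among the 32, 27 lay below 0 (47.1% of all genes lay above 0). In the fit without the 4 low libraries 19 were lower and 2 higher (18.2% and 13.2% of all genes in that fit), and with the Y-linked covariate 7 were lower. Nrip1, a nuclear receptor corepressor gene, read 744, 531 and 848 in C3aRKO and 275, 301, 284, 270.3 and 328 in APP-KI;C3aRKO. The 5 plaque-bearing libraries were nearly alike and all below the controls, a log2 fold change of -1.28 (limma, adjusted p = 9.9e-05). The lectin gene Siglech fell by 0.69 on the log2 scale, from 1408, 1617 and 1134 to 820.4, 958, 822, 759 and 789. Smad3, which relays TGF-β signals, fell by 0.53, from 317, 235 and 239 to 187, 194, 164, 165 and 169.9. Neither gene overlapped between the groups, and with the Y-linked covariate Siglech did not pass (-0.60). Il10ra, the receptor for interleukin 10, changed by -0.67 and lost its call without C3aRKO replicate 1 (-0.68), 2 (-0.68) or 3 (-0.65) or APP-KI;C3aRKO replicate 2 (-0.64), 3 (-0.68), 4 (-0.67) or 5 (-0.64).

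The most used homeostatic markers did not pass. Tmem119 read 1372, 726 and 1873 in C3aRKO and 179.9, 965, 893, 744 and 761 in APP-KI;C3aRKO. P2ry12, a purine receptor, read 1747, 864 and 1982 against 485, 1229, 1189, 1100.5 and 1388, and Cx3cr1, the fractalkine receptor, 5148, 3633 and 6097 against 1692, 4848, 4858, 4669.7 and 5537. In all 3 genes C3aRKO replicate 2 lay within the range of the plaque-bearing group, and APP-KI;C3aRKO replicate 1 was the lowest by far. The log2 fold changes were -1.20 for Tmem119 (adjusted p = 0.11), -0.65 for P2ry12 (adjusted p = 0.29) and -0.43 for Cx3cr1 (adjusted p = 0.54), all from limma. Without the 4 low libraries Tmem119 (-1.15) and P2ry12 (-0.68) passed and Cx3cr1 (-0.27) did not, and Tmem119 also passed without APP-KI;C3aRKO replicate 2 (-1.60). The study's own 8 homeostatic genes gave 2 lower, Nrip1 and Il10ra (2.97% of all genes), with a median of -0.66. All 8 lay below 0 (47.1% of all genes lay above 0). With the Y-linked covariate their median was -1.05, and 1 was lower (226 of all 12407 genes in that fit). In all, 7 of the 8 were lower without the 4 low libraries, where 18.2% of all genes were. That list was chosen by the study and is not independent evidence.

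**Figure D2:**
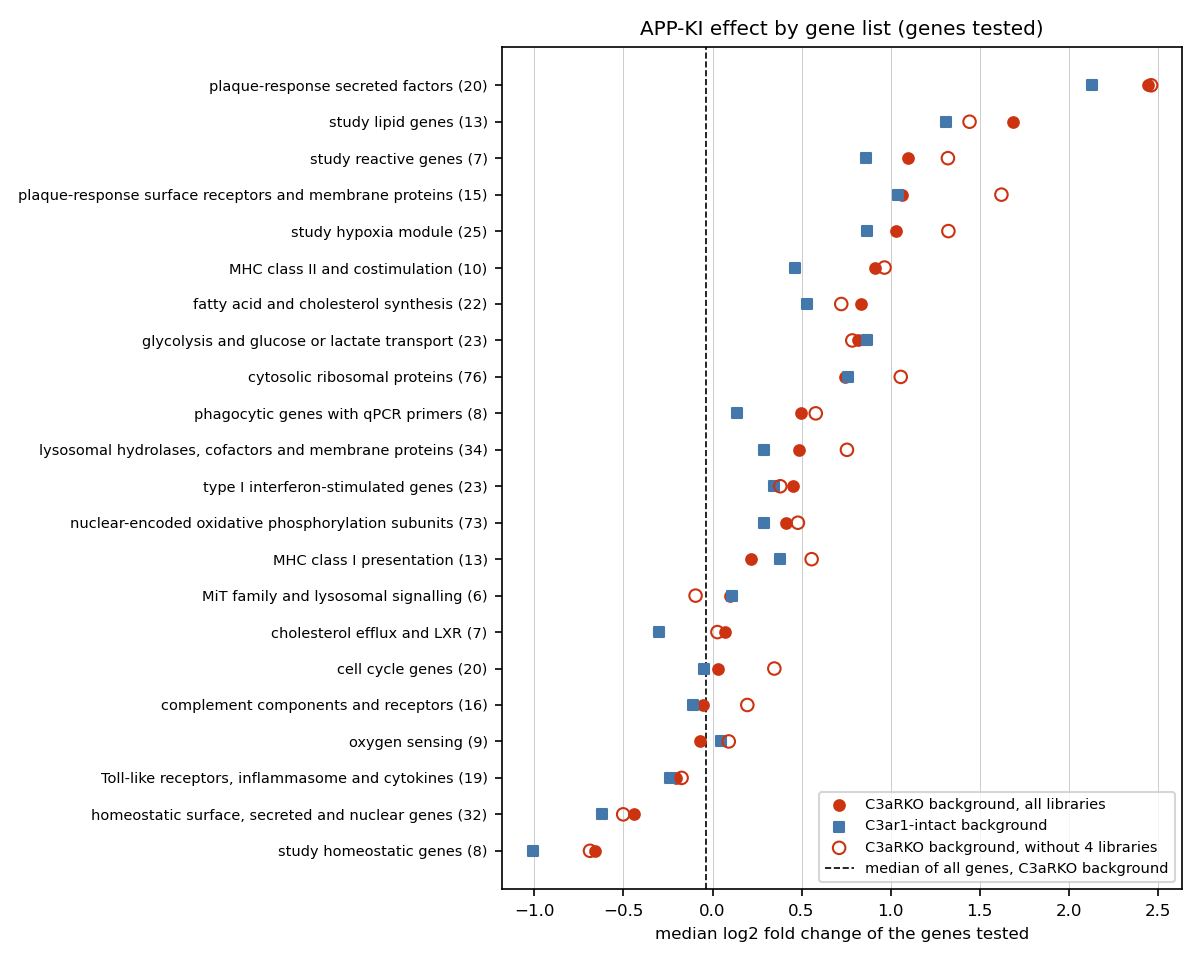
Median log2 fold change (x axis) of the genes tested in each of 22 gene lists, with the number tested in brackets: APP-KI;C3aRKO against C3aRKO in all libraries (filled circles) and without the 4 libraries low in detected genes (open circles), and APP-KI against WT (squares). The dashed line is the median over all genes, -0.03. Secreted plaque-response factors lie farthest to the right, at 2.44, and the study's homeostatic genes farthest to the left, at -0.66.

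Markers of other cells moved with the groups in some lists. The 9 border macrophage markers summed to 551, 413 and 611 in C3aRKO and to 215, 204, 370.2, 328 and 262 in APP-KI;C3aRKO, without overlap. The largest part of that sum came from the mannose receptor gene Mrc1, at 302, 191 and 301 against 79.7, 98.5, 186, 176 and 139. Every plaque-bearing library was below every control. Mrc1 changed by -1.19 (limma, adjusted p = 0.0027) and F13a1 by -0.97. In all, 8 of the 9 genes lay below 0 (47.1% of all genes lay above 0). F13a1 lost its call without C3aRKO replicate 1 (-0.98), 2 (-0.97) or 3 (-0.98), APP-KI;C3aRKO replicate 2 (-0.90), 4 (-0.95) or 5 (-0.85) or WT replicate 6 (-0.96). Per the methods, the sort kept cells positive for CD11b with a middle level of CD45. The share of this list in the falls of other macrophage genes such as Mgl2 was not tested. Of 9 monocyte and neutrophil markers tested, Ccr2 alone was lower (-1.43; 2.97% of all genes), a call lost without C3aRKO replicate 1 (-1.51) or 2 (-1.07), APP-KI;C3aRKO replicate 3 (-1.52), 4 (-1.47) or 5 (-1.44), WT replicate 4 (-1.40), 5 (-1.43) or 6 (-1.42) or APP-KI replicate 4 (-1.44), 5 (-1.44) or 6 (-1.46). That list summed to 169, 142 and 67.7 in C3aRKO and 68.2, 79.3, 90.2, 187 and 42.1 in APP-KI;C3aRKO, with S100a9 the largest part of the sum and overlapping ranges.

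The 10 endothelial and pericyte markers summed to 82.4, 45.4 and 90.7 in C3aRKO and 81.5, 226, 268, 258 and 285 in APP-KI;C3aRKO, where replicate 1 lay among the controls and the other 4 above them. Flt1, which encodes a VEGF receptor, made up the largest part of these sums over the 8 libraries together. Its values were 8.37, 6.98 and 14.9 against 78.4, 142, 229, 210.1 and 249.8, and it rose by 3.80 (limma, adjusted p = 6.4e-08). Of the 8 tested it alone passed (3.96% of all genes higher), 5 lay above 0, and the median was 0.51, with 0.79 within the first series, -0.33 within the second and -0.21 without the 4 low libraries. The defining endothelial marker Cldn5 stayed near 0, at 0, 0 and 0.719 against 0, 1.58, 0.601, 1.62 and 1.17. Pecam1, which immune cells share, read 39.7, 24.2 and 33.5 against 0.294, 17.7, 9.26, 10.7 and 6.05 and did not pass (-2.23, adjusted p = 0.058 from limma). Pecam1 was lower in every plaque-bearing library than in every control, the opposite of Flt1. Cldn5 and Pecam1 were chosen here after their values were seen. Of 5 oligodendrocyte markers tested, Mbp alone was higher (3.96% of all genes), at 26.1, 52.5 and 66.9 against 73.2, 98.7, 114, 108 and 127, a change of 1.06 (limma, adjusted p = 0.0069), and the other 4 lay below 0. The 9 markers of that list summed to 115, 119.5 and 177 in C3aRKO and 107, 186, 195, 193 and 231 in APP-KI;C3aRKO, with overlap, and its part in other results was not tested.

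Counts without adjustment in the next lists stand beside 1255 higher and 1280 lower of all 12407 genes (limma). Among all genes edgeR called 387 higher and 268 lower, and DESeq2 692 and 450. Neuronal markers were near the floor, with sums of 26.1, 14.7 and 24.6 in C3aRKO and 12.1, 18.3, 14.7, 14.3 and 16.3 in APP-KI;C3aRKO. Camk2a was the largest part of the sum, with 3 of 10 tested and none called in limma (p under 0.05 without adjustment in 0 upward and 0 downward, edgeR 0 and 0, DESeq2 0 and 0). The 8 astrocyte markers summed to 399, 383 and 354 and 344, 372, 224, 228 and 219.6, with Slc1a3 the largest part of the sum and none called in limma (p under 0.05 without adjustment in 1 upward and 1 downward, edgeR 0 and 0, DESeq2 1 and 0). T, NK and B cell markers summed to 24.3, 85.7 and 24 and 29.3, 52.5, 9.13, 10.6 and 10.5, with Cd3g the largest part of the sum and none called of 8 in limma (p under 0.05 without adjustment in 0 upward and 0 downward, edgeR 0 and 0, DESeq2 0 and 0). The ranges of the groups overlapped in all 3 lists. Choroid plexus and ependyma markers summed to 0.648, 74.8 and 11.9 and 7.65, 24.6, 5.21, 57.1 and 21.2, led by Ttr, with overlap and 1 of 7 at 0 in all 8 libraries. None of the 4 tested was called in limma (p under 0.05 without adjustment in 1 upward and 0 downward, edgeR 0 and 0, DESeq2 1 and 0). Of the 19 genes that dissociation is known to raise, Egr2 alone was higher (3.96% of all genes), at 2.34, 12.1 and 13.2 against 45.2, 59.7, 55.7, 80.6 and 48.8, a change of 2.62 (limma, adjusted p = 0.0011), or 3.56 with the Y-linked covariate. The 19 genes summed to 4725, 4894 and 4528 in C3aRKO and 8108, 4872, 4969, 5307 and 3066 in APP-KI;C3aRKO, with Jun the largest part of the sum and replicate 1 the highest library. Their median log2 fold change was 0.24, 0.00 without the 4 low libraries and 0.65 with the Y-linked covariate, and their part in other results was not tested.

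Set beside the same contrast with C3ar1 intact, the effect of APP-KI had the same sign for most genes called. The APP-KI and WT libraries are not those of the C3ar1-deficient comparison, although both contrasts come from 1 fit and share its estimate of the spread. For APP-KI against WT, 275 genes (2.22%) were higher and 239 (1.93%) lower. Leaving out single libraries, these counts ran from 152 to 415 higher and from 66 to 422 lower. The lowest were without WT replicate 4 and the highest without APP-KI;C3aRKO replicate 1. The overlaps that follow rest on the fit with all libraries. Of the 491 genes higher without C3ar1, 247 were also called with it, which is 50.3% of that list and 89.8% of the intact one. Of the 369 lower, 166 were called with it, or 45.0% and 69.5%. The sign was the same for 485 of the 491 (98.8%) and 366 of the 369 (99.2%), and no gene was called in opposite directions. Y-linked reads were more common on the APP-KI side in both contrasts, and their part in the shared signs was not tested. Across the 12407 genes the 2 effects had an r of 0.659, a description over genes that are not independent replicates.

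The difference between the 2 effects was tested directly. No gene passed (0.0%) in limma, where the smallest adjusted p was 0.998, and without adjustment p was under 0.05 for 111 genes upward and 92 downward. No gene passed without the 4 low libraries either, where 674 and 1100 had p under 0.05 without adjustment. Leaving out single libraries, those counts ran from 24 to 541 upward and from 9 to 290 downward, the highest of each without C3aRKO replicate 3, and no gene passed. On recovered reads edgeR called 0 genes (106 and 69 without adjustment) and DESeq2 called 1 (107 and 145). That gene was Phyhipl, with a fitted difference of 22.3 on the log2 scale, and neither limma nor edgeR called it. The median gene had a 95% interval of the difference that reached 1.00 to each side on the log2 scale. All 15 largest rises were called in both backgrounds, and the interval of the difference held 0 for each. For Gpnmb the effect was 8.74 without C3ar1 and 8.79 with it, a difference of -0.05 (95% interval -1.39 to 1.28). For Cst7 it was 7.81 against 7.18, and for Apoe 2.27 against 2.19, a difference of 0.08 (-1.15 to 1.31). Hif1a changed by 1.90 without C3ar1 and by 2.11 with it, a difference of -0.20 (-0.99 to 0.58).

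When all 14 libraries are used, an unadjusted p under 0.05 was found for fewer genes, 111 and 92 of 12407, than the 5% that chance gives. The share was above 5% without C3aRKO replicate 3 or without the 4 low libraries (counts above). It was also above 5% without the 3 of them among the 8 compared, and without the 4 and APP-KI replicate 5. The genes that follow are no evidence of a difference. Igf1 rose by 4.54 without C3ar1 and by 3.48 with it, a difference of 1.07 (0.33 to 1.80). The difference was 0.88 for Tlr2 (0.26 to 1.50), whose change with C3ar1 intact was 0.63, and -0.87 for Acaca (-1.59 to -0.15), which changed by 3.43 there. Among the falls it was -0.98 for Col6a3 (-1.60 to -0.35) and -2.31 for Pde2a (-3.90 to -0.73), which read 4.72, 3.88 and 4.07 in WT and 4.53, 4.17 and 5.46 in APP-KI. The adjusted p was 0.998 or more for each of these 5 genes in limma, and they were picked here after their values were seen. Of the 15 largest falls 14 had the same sign with C3ar1 intact, Pde2a being the exception, and 6 were called there.

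List medians in both backgrounds are given side by side. The median of the secreted factors was 2.44 without C3ar1 and 2.13 with it, that of the surface proteins 1.07 and 1.04, and that of the hypoxia module 1.03 and 0.87. For the lipid genes the medians were 1.69 and 1.31, for lysosomal genes 0.49 and 0.29, and for the 32 homeostatic genes -0.44 and -0.62. Further pairs were MHC class II (0.91 and 0.46), phagocytic genes (0.50 and 0.14), cholesterol efflux and LXR (0.07 and -0.30), the study's homeostatic genes (-0.66 and -1.01) and fatty acid and cholesterol synthesis (0.83 and 0.53). Lower without C3ar1 than with it were MHC class I (0.22 and 0.38), oxygen sensing (-0.07 and 0.05), glycolysis (0.82 and 0.87), ribosomal proteins (0.74 and 0.76) and the MiT family (0.10 and 0.11). Differences between list medians were not tested.

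Genes called between APP-KI and WT in C3aR-sorted microglia give a list from libraries outside both contrasts. In that sort, 1602 genes (13%) were higher and 1196 (9.71%) lower of 12312 tested. Of the 1601 raised genes tested in C3ar1-deficient microglia, 432 (27.0%, against 3.96% of all genes) were higher, 88.9% lay above 0 (47.1% of all genes), and the median log2 fold change was 0.63, beside 0.55 with C3ar1 intact. Of the 1196 lowered genes, 291 (24.3%, against 2.97% of all genes) were lower, and the median was -0.55, beside -0.52. Below 0 lay 90.9% of them (47.1% of all genes lay above 0).

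**Figure D3:**
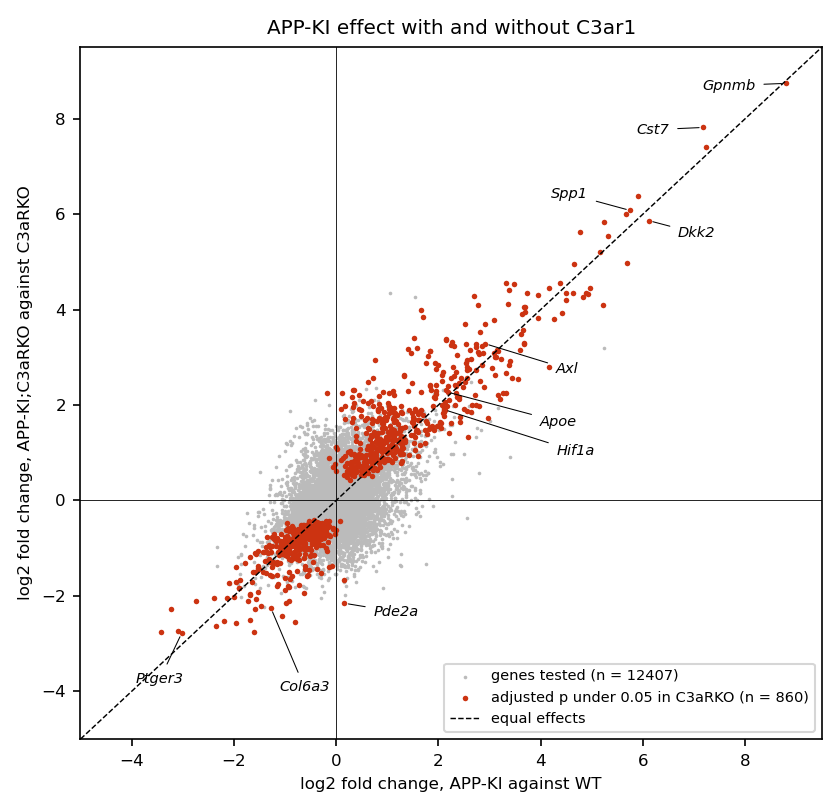
Log2 fold change of each of 12407 genes for APP-KI;C3aRKO against C3aRKO (y axis) and for APP-KI against WT (x axis), with the genes called in the former in red and the line of equal effects dashed. The largest rises lie near the line, Gpnmb at 8.74 and 8.79, and Pde2a lies off it at -2.15 and 0.16.

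Promoter sequences were read for the largest rises, and the windows shown are those that held the E-box, the M-box or the PU.1 motif searched for. RefSeq promoters of build GRCm38.p6, limited to the 250 bases before the start, were at hand for 9 of the 15 genes, with 15 promoters in all. Searched on both strands were CACGTG, the E-box bound by MiT/TFE factors of lysosomal genes, TCATGTG, the M-box of MITF, ACGTG, the core of the hypoxia response element, which lies within CACGTG, and the PU.1 motif GAGGAAGT. Of 32851 promoters, 6.02% held the E-box, 3.25% the M-box, 16.6% the hypoxia core and 2.44% the PU.1 motif. Of the 15, they were found in 2, 1, 3 and 1, and 1 promoter that held the hypoxia core without the other motifs is not shown. Of 510 promoters of genes called higher, 8.43%, 2.75%, 21.0% and 3.33% held them, and of 430 of genes called lower, 8.84%, 1.40%, 17.4% and 3.95%. The motifs were chosen with results known. A match describes letters in a window and is neither a bound site nor a cause. The motifs are in capitals, 5′ to 3′.
Etl4 promoter, chr2:20509797-20510046, plus strand: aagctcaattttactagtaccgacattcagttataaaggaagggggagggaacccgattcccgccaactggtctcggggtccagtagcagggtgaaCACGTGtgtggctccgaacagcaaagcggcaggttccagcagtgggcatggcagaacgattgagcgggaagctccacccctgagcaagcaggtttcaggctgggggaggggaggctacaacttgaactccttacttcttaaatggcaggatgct
Spp1 promoter, chr5:104434861-104435110, plus strand: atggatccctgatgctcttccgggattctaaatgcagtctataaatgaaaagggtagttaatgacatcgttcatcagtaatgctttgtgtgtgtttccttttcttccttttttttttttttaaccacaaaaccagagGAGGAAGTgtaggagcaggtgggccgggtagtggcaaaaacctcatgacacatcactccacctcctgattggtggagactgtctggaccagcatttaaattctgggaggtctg
Trpm1 promoter, chr7:64153585-64153834, plus strand: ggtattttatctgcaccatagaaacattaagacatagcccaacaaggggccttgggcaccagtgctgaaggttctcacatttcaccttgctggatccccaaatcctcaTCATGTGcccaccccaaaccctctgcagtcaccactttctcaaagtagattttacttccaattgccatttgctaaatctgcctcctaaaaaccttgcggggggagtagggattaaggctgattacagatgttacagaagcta
Trpm1 promoter, chr7:64185209-64185458, plus strand: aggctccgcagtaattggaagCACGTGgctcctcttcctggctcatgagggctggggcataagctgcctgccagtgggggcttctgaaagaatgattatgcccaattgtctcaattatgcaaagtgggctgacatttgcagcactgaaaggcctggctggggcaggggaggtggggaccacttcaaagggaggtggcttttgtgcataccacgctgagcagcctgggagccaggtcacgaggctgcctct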

How the data were processed

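RNA from sorted brain microglia was sequenced in 20 samples. Per the labels, the authors used cutadapt, TopHat2, featureCounts and DESeq2 with build mm10. The deposited values are named FPKM but are a signal: a gene's reads over the upper quartile (75th percentile) of all counts in that library, and gene length plays no part. Reads came back as whole numbers in 100% of values (tolerance 0.1), and 1 read is worth 0.0141 to 0.0226 scaled units in the 8 libraries compared, which limits the precision of low values by counting error alone. Rows of 1 symbol were summed (21315 symbols), and values were multiplied by 35.2.

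A gene was kept where its scaled values averaged 1 or more in the 14 libraries not selected on C3aR. The test was limma 3.58.1 (R 4.3.3) on log2(scaled value + 1) with a mean-variance trend, terms for group and library series, Benjamini-Hochberg adjustment over all genes and a threshold of 0.05. The C3aR-sorted libraries were fitted alone. Alternatives included edgeR 4.0.16, which called 387 genes higher and 268 lower on recovered reads, and DESeq2 1.42.0, which called 692 and 450. Others were a pseudocount of 0.1, filters, scalings, weights, covariates, a replicate block and libraries left out. Python 3.11.15, numpy 2.4.6, pandas 2.3.3, scipy 1.17.1 and matplotlib 3.10.9 were used for the rest.

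Genes named are the 15 largest rises and 15 largest falls among those past the threshold whose groups do not overlap, Y-linked genes left out, and described members of the gene lists. Members and lists were chosen with earlier results of these data known.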

Additional observations from a re-analysis of the deposited data

Results flagged for a closer look

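Of 120 values examined over the 5 APP-KI;C3aRKO libraries, 28 had 1 library far from the others, and in 27 of them it was replicate 1. The measure is the gap from the extreme library to its nearest neighbour divided by the range of the 5, taken on log2(value + 1) for genes and summed levels, on the mean of log2(value + 1) for lists, and on the plain scale for reads, genes detected and the share of reads in the top genes, and a value above 0.71 was counted. Chance gives about 1 in 20 groups, and values of 1 library are not independent of each other.

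Replicate 1 was the lowest for the number of genes with at least 10 reads (0.723). Among the largest rises it was the lowest for Cst7 (0.711) and Lpl (0.74). Among the largest falls it was the lowest for Slco4a1 (0.767), Gbp3 (0.896), Mgl2 (0.827), Fgf11 (0.815) and Slc13a3 (0.812). The same held for Abca1 (0.895), Tmem119 (0.845), P2ry12 (0.779) and Cx3cr1 (0.856). For Insig1 (0.874) and the summed Y-linked level (0.746) it was the highest.

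The mean log2 level of a list was lowest in replicate 1 for the study's homeostatic genes (0.776), phagocytic genes (0.838), glycolysis (0.731), oxygen sensing (0.783) and oxidative phosphorylation (0.727). It was also lowest there for fatty acid and cholesterol synthesis (0.788), MHC class I (0.75), complement (0.82), homeostatic genes (0.83) and the cell cycle (0.803). Summed levels were lowest there for markers of microglia (0.844), oligodendrocytes (0.722) and endothelial cells and pericytes (0.814).

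The exception was Baiap2l2 (0.845), where replicate 2 was far below the other 4.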

How the results depend on the processing

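The 15 largest rises kept their direction and call in every alternative, and 501 of their alternative values kept the direction and side of the threshold, whatever their size, or, for values within a series, lay within 1 SD of the reported one, while 9 values within a series lay farther. Of the 15 largest falls, 3 kept their call throughout, and 114 alternative values fell short of the threshold. Over the other genes run, which include Pgk1 (19) and Ctsz (20), described nowhere else, 212 values lost the call. Over the 22 list medians 27 values were counted as moved. That count leaves out part of the changes of sign given above for single lists.

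The number of genes higher and lower changed from 491 and 369 as follows. Apart from the stricter threshold, which can only lower the counts, the cause was not tested. Library quality weights gave 805 and 707, although their estimation did not converge. The 8 libraries compared alone gave 275 and 168. Replicates 1 to 3 gave 121 and 30 with a replicate block and 127 and 36 with the series term, and the replicate numbers do not pair the samples (r across genes 0.009, -0.031 and 0.241). An adjusted p under 0.0005 left 114 and 25. Alternatives chosen after seeing the data gave 1655 and 2281 without the 4 libraries with fewest genes detected, 1731 and 2427 without those and APP-KI replicate 5, 580 and 506 without the 3 of them among the 8 compared, and 310 and 226 with the Y-linked covariate. Leaving out single libraries gave 371 to 759 higher and 243 to 638 lower. Median ratio scaling gave 556 and 285. The difference between backgrounds gave 0 genes in all settings of limma and edgeR and 1 in DESeq2, and 0 without any single library. C3ar1 reversed to -0.15 with the Y-linked covariate.

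Few controls limit these results: 3 C3aRKO libraries, of which 2 detect few genes and 2 lack Y-linked reads, so library complexity, sex and genotype are partly entangled, and sex wholly so without the 4 libraries with fewest genes detected. Low genes rest on single reads.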
